A study of Mus musculus with 4 samples.

Results

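Chromatin accessibility was followed at 7 genes of the Myc family, namely Myc, Mycn, Mycl, Max, Mxd1, Mxi1 and Mnt, and along the 2 Mb downstream of Myc that hold its distal blood enhancer cluster. A region was taken when a peak of the WT or the KO list overlapped the body of 1 of these genes extended by 20 kb on each side, or lay between the Myc start and 2 Mb downstream on chromosome 15. The rule itself uses no measured difference, but the members were chosen with earlier results of these data known. It gave 40 of the 45475 accessible regions on the autosomes and chromosome X, made from 34 WT peaks and 37 KO peaks. The regions between 1.6 and 1.8 Mb downstream of Myc, 9 in all, are called the distal cluster here. Whether they act as enhancers was not measured.

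The cells were hematopoietic stem cells (HSCs) sorted from bone marrow of adult C57BL/6 mice as lineage-negative Sca1+ Kit+ cells with the surface markers CD150+ CD34- CD48-, as the labels give them. The study's methods for ATAC-seq name CD150+ and CD48- without CD34. ATAC-seq marks open DNA through a transposase that cuts it and adds sequencing adapters. WT mice carried floxed Med23 without cre, and KO mice carried the same floxed Med23 together with Mx1-cre, a cre under an interferon-inducible promoter that is switched on by poly(I:C) and is not confined to HSCs. The labels do not say whether the WT mice received poly(I:C). For its blood counts the study used WT and KO mice after poly(I:C), but its methods for ATAC-seq do not state the treatment. Each genotype has 2 labelled samples, but the labels of both name the same peak list, so the comparison was between 1 WT and 1 KO list with no spread between replicates and no test. The lists hold no read totals, and depth is known only through the peaks. The summit pileup, the number of fragments or reads stacked at the highest point of a peak, had a median of 18 over WT peaks and 19 over KO peaks.

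Myc, Mycn and Mycl encode transcription factors that bind E-box DNA as partners of Max and drive genes of ribosome synthesis, metabolism and cell growth. Mxd1, Mxi1 and Mnt encode proteins that pair with the same Max, bind the same DNA and recruit repressors. In HSCs, Myc activity is tied to the exit from self-renewal, and a set of enhancers far downstream of Myc is known to be needed for Myc transcription in blood stem and progenitor cells. Med23 is a subunit of Mediator, the complex that carries signals from enhancer-bound factors to RNA polymerase II.

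The sequences under 7 regions on which the Myc results turn were read from the reference genome, mm10, plus strand, as the 200 bp around the summit. They are the 4 neighbouring cluster regions with the highest KO to WT ratios, the cluster region found in the KO list alone, the cluster region with the lowest ratio, and a region in an intron of Pvt1. In order of distance from Myc the windows are chr15:62106656-62106855, chr15:63611222-63611421, chr15:63616972-63617171, chr15:63648273-63648472, chr15:63658188-63658387, chr15:63665558-63665757 and chr15:63679074-63679273. Capitals mark matches to any of 10 short motifs on either strand, which are spelled out with the motif counts further on.
Myc +121 kb: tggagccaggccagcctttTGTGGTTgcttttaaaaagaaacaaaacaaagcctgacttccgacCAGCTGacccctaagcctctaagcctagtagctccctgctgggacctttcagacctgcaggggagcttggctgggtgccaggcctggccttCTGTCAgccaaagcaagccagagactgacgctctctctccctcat
Myc +1626 kb: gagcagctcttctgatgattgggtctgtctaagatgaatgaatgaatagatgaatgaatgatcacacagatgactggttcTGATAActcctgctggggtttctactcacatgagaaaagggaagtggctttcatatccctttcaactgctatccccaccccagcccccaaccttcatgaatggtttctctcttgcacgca
Myc +1632 kb: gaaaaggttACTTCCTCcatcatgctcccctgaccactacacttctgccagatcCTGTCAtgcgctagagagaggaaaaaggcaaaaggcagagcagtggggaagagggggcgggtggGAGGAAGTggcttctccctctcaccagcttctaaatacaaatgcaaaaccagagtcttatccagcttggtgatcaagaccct
Myc +1663 kb: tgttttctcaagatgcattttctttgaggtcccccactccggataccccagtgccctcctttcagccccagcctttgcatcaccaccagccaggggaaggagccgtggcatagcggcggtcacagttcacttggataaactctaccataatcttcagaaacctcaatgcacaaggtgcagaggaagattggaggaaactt
Myc +1673 kb: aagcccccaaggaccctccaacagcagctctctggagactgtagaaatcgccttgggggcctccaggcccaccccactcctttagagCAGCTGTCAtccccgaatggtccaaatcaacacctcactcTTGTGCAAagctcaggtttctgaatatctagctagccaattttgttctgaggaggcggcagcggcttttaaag
Myc +1680 kb: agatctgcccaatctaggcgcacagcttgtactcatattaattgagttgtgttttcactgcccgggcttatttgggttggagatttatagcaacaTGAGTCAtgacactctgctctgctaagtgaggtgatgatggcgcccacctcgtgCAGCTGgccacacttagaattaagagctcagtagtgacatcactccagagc
Myc +1694 kb: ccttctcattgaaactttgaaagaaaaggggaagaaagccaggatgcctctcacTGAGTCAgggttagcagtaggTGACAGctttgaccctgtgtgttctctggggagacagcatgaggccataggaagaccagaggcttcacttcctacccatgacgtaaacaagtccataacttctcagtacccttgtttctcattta
The window at +1663 kb, the strongest region of the cluster, held none of the motif letters. The window at +1632 kb held the PU.1 letters at 2 places, once on each strand. The windows at +1680 and +1694 kb each held the AP-1 letters, and those at +1673 and +1680 kb the letters CAGCTG. At +1673 kb the CAGCTG match overlaps a match to the MEIS letters.

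At the scale of the whole domain, the distance between Myc and the cluster stood out. From +221 kb to +1616 kb neither list had a peak, a stretch of 1.39 Mb. Of 45455 stretches between neighbouring regions in the genome, 117 were at least as long, and the median stretch was 20.3 kb. The annotation places 30 other genes in the 2 Mb, of which 5 code for proteins, and these are Gsdmc, Gsdmc2, Gsdmc3 and Gsdmc4 of the gasdermin family and Fam49b, all beyond 1.7 Mb. The 9 regions of the cluster lay within 121 kb of each other. Only 2.98% of 13163 bins of 200 kb across the genome held as many regions away from gene starts, and the median bin held 1. All 9 lay in introns of long noncoding RNA genes, Gm41335 and, for the most distal, 4930449C09Rik. The map of the Myc domain shows these positions in both lists.

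**Figure D1:**
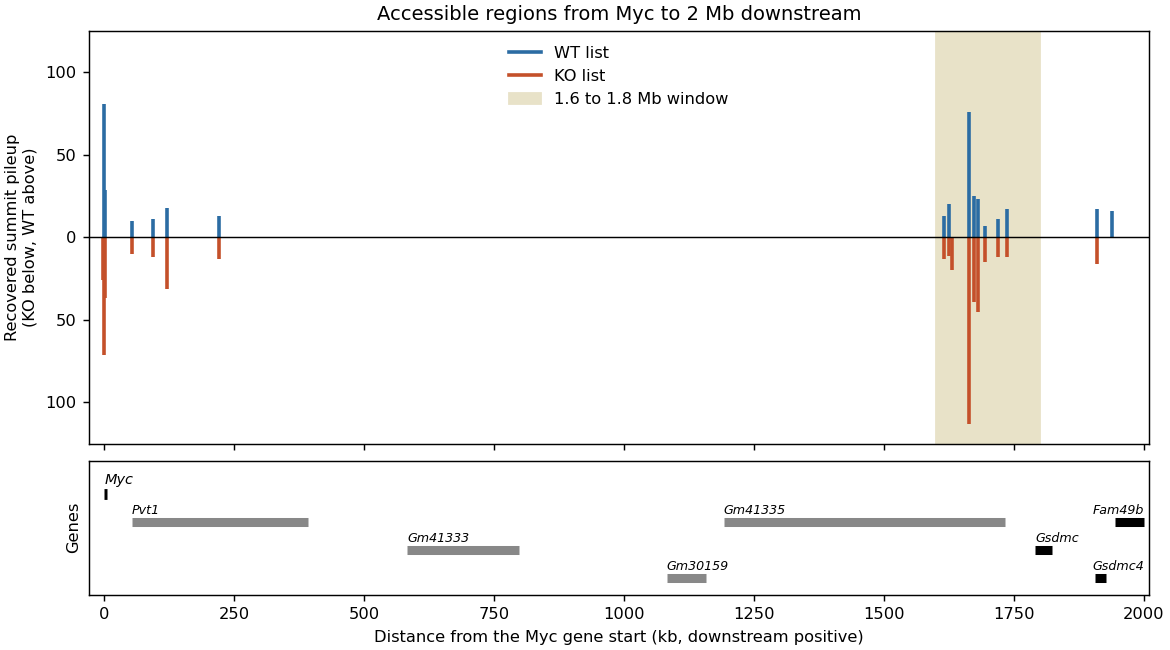
Upper panel, each line is 1 accessible region at its distance in kb from the Myc gene start (x axis), with the recovered summit pileup of the WT list drawn upwards and that of the KO list downwards. Lower panel, selected annotated genes, protein-coding in black and noncoding in grey. Both lists have peaks at Myc and Pvt1, none for 1.39 Mb, and 9 regions in the shaded window, the tallest at +1663 kb with 76 in WT and 113 in KO.

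The distal cluster was open in both genotypes. Of its 9 regions, 8 were in both lists (88.9%, 95% Wilson interval 56.5 to 98.0%), 0 with a WT peak alone and 1 with a KO peak alone. Over all 45475 regions the share in both lists was 64.8%, with 18.1% having a WT peak alone and 17.2% a KO peak alone. For regions more than 1000 bp from any annotated start the last 2 shares were 23.6% and 22.5%. The WT peaks of the cluster covered 4643 bp and the KO peaks 6714 bp.

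To compare heights, the log2 ratio of KO to WT pileup was taken in each region with 1 peak of each list, and the median over all 28909 such regions, 0.08, was subtracted. These values are called relative ratios below. A value of 0 is thus the typical region, and past 1.5-fold means at least 0.58 away from 0 on the log2 scale. The bracketed ranges are exact 95% binomial intervals for the pair of pileups. They cover counting error only, and neither mouse to mouse nor library to library differences. Genome-wide, 7.64% of regions were past 1.5-fold higher in KO and 7.91% past it lower. Away from starts the shares were 10.9% and 7.88%.

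Added up over the 8 shared regions, the pileup of the cluster was 192 in WT and 260 in KO. The relative ratio of the sums was 0.36 (0.08 to 0.63). The interval of this ratio, which covers counting error only, lay above 0. The sum was not planned and was added after the data were seen, so its interval is a description only. Whether the cluster as a whole differs between the genotypes was not tested. The difference between mice or libraries cannot be judged. In sorted but bulk cells, more cells with open sites and more opening per cell cannot be told apart. Without its strongest region the relative ratio was 0.26 (−0.10 to 0.62). The other 23 family regions with 1 peak of each list had summed pileups of 877 in WT and 928 in KO, for a relative ratio of 0.00 (−0.13 to 0.14). Within the cluster the regions did not move alike. Relative ratios were above 0 in 5 regions and below 0 in 3, with a median of 0.27, and 2 were past 1.5-fold higher and 1 past it lower.

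The strongest region lay at +1663 kb (63647744 to 63648952). Its pileup was 76 in WT and 113 in KO, for a relative ratio of 0.49 (0.06 to 0.93), short of 1.5-fold. By pileup it ranked 177 of 22511 regions away from starts with a WT peak and 56 of 22191 with a KO peak. It was thus among the most accessible distal sites of these cells in both. In the tenth of regions with the highest summed pileup, 122 to 1224, 1.56% were past 1.5-fold higher in KO and 0.62% lower. The region at +1663 kb was not among these, and how often regions this strong reach its ratio was not counted. The summits of the WT and KO peaks were 7 bp apart.

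Its neighbour at +1673 kb (63657675 to 63658849) had a pileup of 25 in WT and 39 in KO, for a relative ratio of 0.56 (−0.20 to 1.35). At +1680 kb (63665125 to 63665810) the pileup was 23 in WT and 45 in KO, for a relative ratio of 0.89 (0.13 to 1.68), past 1.5-fold with an interval above 0. For regions of like summed pileup, 67 to 86, 5.33% were past 1.5-fold higher. At +1694 kb (63678711 to 63679450) there were 7 in WT and 15 in KO, for a relative ratio of 1.02 (−0.36 to 2.55), the highest of the family but with the lowest WT pileup of the cluster. These 4 regions follow each other without another region between them. They were singled out after their values were seen, so their sum, 131 in WT and 212 in KO with a relative ratio of 0.61 (0.29 to 0.94), is a description only.

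The cluster region at +1632 kb (63616907 to 63617345) was in the KO list alone, with a pileup of 20, a fold enrichment over local background of 9.37 and a −log10 q of 15.4. Its absence from the WT list means that no WT peak passed the authors' threshold there, not that the site was closed. On its Myc-proximal side the region at +1626 kb (63611048 to 63611487) went the other way, with 20 in WT and 11 in KO, for a relative ratio of −0.94 (−2.15 to 0.19). The region at +1737 kb (63721500 to 63722609) had 17 in WT and 12 in KO. The relative ratio, −0.58 (−1.78 to 0.57), fell just short of 1.5-fold. At +1616 kb (63601706 to 63602377) both lists had 13, and at +1719 kb (63704613 to 63704977) WT had 11 and KO 12. The intervals of these 4 shared regions all span 0, and their pileups sum to 61 in WT and 48 in KO. The plot of cluster pileups sets the regions side by side.

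**Figure D2:**
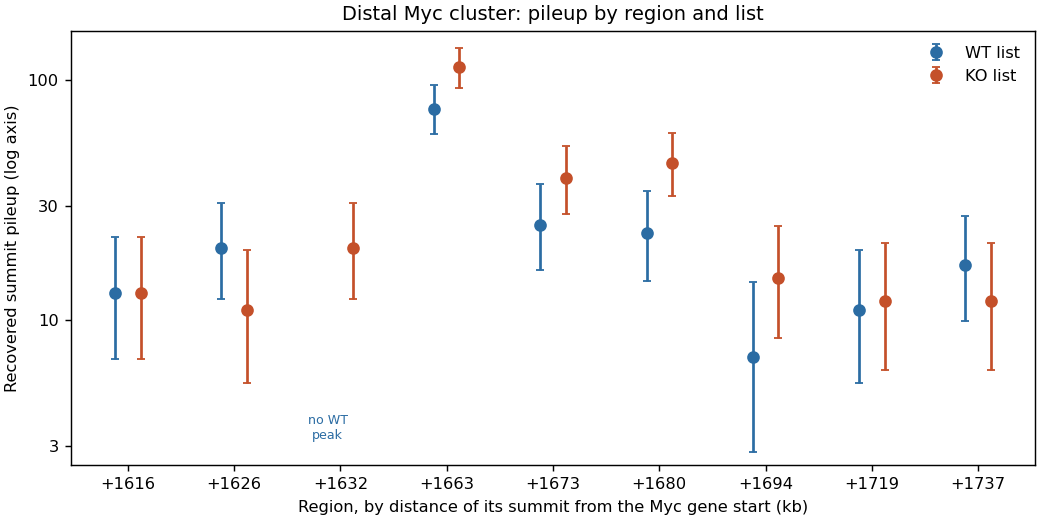
Recovered summit pileup (log axis) of the 9 regions 1.6 to 1.8 Mb downstream of Myc, named by the distance of the summit in kb from the Myc start, with 1 point for the WT list and 1 for the KO list and exact 95% Poisson intervals that cover counting error only. The KO point is above the WT point in the 4 neighbouring regions from +1663 to +1694 kb and below it at +1626 and +1737 kb, and +1632 kb has a KO peak only.

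The surroundings of the cluster peaks were also compared with those of the rest of the family. The local background, the mean pileup that the peak caller expected around a summit, was higher in KO than in WT at 5 of the 8 shared cluster regions. It was higher in KO at 18.4% of all shared regions and at 1 of the other 23 of the family, and the median log2 ratio of KO to WT background was −0.22 over all shared regions and 0.09 in the cluster. The log2 ratio was 0.53 at +1680 kb and 0.80 at +1694 kb, where the background went from 1.19 in WT to 2.09 in KO. That WT value is the lowest level of the WT list, and +1719 kb was also at it, with 1.19 in WT and 1.24 in KO. The KO list was at its own lowest level, 1.13, at +1616 and +1626 kb. A ratio with such a value reflects that level and not the surroundings alone. Outside the cluster, +52, +94 and +1910 kb at Myc and the region 19 kb after the Max start were at the lowest level of both lists. There KO was bound to be lower, so the comparison with the rest of the family is partly set by these levels. At +1663 kb it was 6.67 in WT and 5.90 in KO. This background rises with neighbouring peaks, and it is the divisor of the authors' fold enrichment. On fold enrichment the cluster difference was smaller, with a median relative ratio of 0.08, and the relative ratios of the 4 neighbouring regions were 0.46 at +1663 kb, 0.27 at +1673 kb, 0.33 at +1680 kb and 0.25 at +1694 kb. All kept their sign, and none was past 1.5-fold.

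At Myc itself (ENSMUSG00000022346.15, chromosome 15, 61985391 to 61990374, plus strand), the promoter was not higher in KO. Its region (61984228 to 61985989) had a pileup of 81 in WT and 71 in KO, for a relative ratio of −0.27 (−0.75 to 0.21). The local background there was 10.3 in WT and 7.09 in KO, so the fold enrichment, 7.25 in WT and 8.90 in KO, pointed the other way from the pileup. Relative to the median of all shared regions, the log2 ratio of the fold enrichments was 0.04. A second region in the gene, 1.79 kb after the start (61986969 to 61987521), had 29 in WT and 37 in KO, for a relative ratio of 0.27 (−0.47 to 1.02). On fold enrichment its relative ratio was 0.63, the only one of the family past 1.5-fold higher on that measure. A region at −1.85 kb (61983501 to 61983978) was in the KO list alone with a pileup of 26. It stood on a background of 7.08, so its fold enrichment was only 3.34.

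Between Myc and the empty stretch lies Pvt1, a long noncoding RNA gene whose start and introns hold known regulatory sites of Myc. The region at the Pvt1 start, at +52 kb (62037714 to 62038601), had a pileup of 10 in both lists. In Pvt1 introns, the region at +94 kb (62079370 to 62080347) had 11 in WT and 12 in KO. The region at +121 kb (62106040 to 62106943) had 18 in WT and 31 in KO, for a relative ratio of 0.70 (−0.18 to 1.63). It was the only region of the family outside the cluster past 1.5-fold higher, and on fold enrichment its relative ratio was 0.34. At +221 kb (62206249 to 62206772) both lists had 13. Beyond the cluster, an intron of Gsdmc4 at +1910 kb (63895694 to 63896251) had 17 in WT and 16 in KO, and an intron of the pseudogene Gsdmcl-ps at +1939 kb (63924562 to 63924913) had a WT peak alone, with 16.

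The promoters of the other 2 activating family members were similar between the lists. Mycn (ENSMUSG00000037169.15, chromosome 12, 12936093 to 12941914, minus strand) had 1 region in all (12940369 to 12942829), with a pileup of 65 in WT and 59 in KO, for a relative ratio of −0.22 (−0.75 to 0.31). The WT peak there was 1645 bp wide and the KO peak 2461 bp. The Mycl promoter (ENSMUSG00000028654.13, chromosome 4, region 122995427 to 122996523) was the weakest of the family, with 18 in WT and 19 in KO and a relative ratio of 0.00 (−1.01 to 1.01). Of the other Mycl regions, that at 1.61 kb after the start (122996815 to 122997361) had 13 in WT and 19 in KO. The region at the neighbouring Trit1 start (123016407 to 123017010) had 31 and 25. A region at −10.3 kb (122984677 to 122985565) was in the KO list alone, with a pileup of 27 and a fold enrichment of 10.4, the highest among the 6 regions of the family that the KO list alone held.

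Max (ENSMUSG00000059436.13, chromosome 12, minus strand), the shared partner, had a promoter region (76961819 to 76962757) with 62 in WT and 64 in KO, for a relative ratio of −0.04 (−0.56 to 0.49). Its intron held a region with 10 in WT and 11 in KO at 19 kb after the start (76942988 to 76943364), and another at 4.31 kb (76957644 to 76957938) in the KO list alone with 14. The pileup at Max was thus nearly the same in both genotypes.

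Among the antagonists, Mxd1 (ENSMUSG00000001156.9, chromosome 6, minus strand) had the highest promoter ratio of the family. Its promoter region (86668889 to 86669764) had a pileup of 74 in WT and 97 in KO, for a relative ratio of 0.31 (−0.14 to 0.77), and a fold enrichment of 9.41 in WT and 14.9 in KO. An intronic region 14.6 kb after the start (86654482 to 86654822) was in the KO list alone with a pileup of 8, and the region at the start of Snrnp27 (86684235 to 86684812) had 14 in WT and 12 in KO. Mnt (ENSMUSG00000000282.12, chromosome 11, plus strand) had the tallest promoter (74829854 to 74831225), with 92 in WT and 100 in KO and a relative ratio of 0.04 (−0.38 to 0.46). Its 3 further regions had pileups of 68, 52 and 17 in WT and 76, 63 and 16 in KO, none past 1.5-fold.

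Mxi1 (ENSMUSG00000025025.14, chromosome 19, 53310518 to 53375810, plus strand) had 4 of 7 regions in both lists (57.1%, 25.0 to 84.2%), near the 64.8% of all regions. The 2 regions that follow its first start (53310944 to 53311336 and 53311814 to 53312173) were in the WT list alone, each with a pileup of 22 on a background of 8.04 and 8.02 and a fold enrichment near 2.55. The region at 3.70 kb (53313052 to 53314643), the tallest of the gene in WT, had 65 in WT and 52 in KO, for a relative ratio of −0.40 (−0.96 to 0.15). At the internal start 19 kb on (53329238 to 53330452) the pileup was 40 in WT and 46 in KO, for a relative ratio of 0.12 (−0.52 to 0.77). A region at 15.3 kb (53325594 to 53326111) was in the KO list alone with 31. Upstream, at −6.94 kb (53303343 to 53304071), WT had 23 and KO 14, a relative ratio of −0.80 (−1.87 to 0.22), the only family region outside the Myc domain past 1.5-fold lower. Past the gene's end, the region at +80 kb (53389985 to 53391109) had 54 in WT and 65 in KO.

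**Figure D3:**
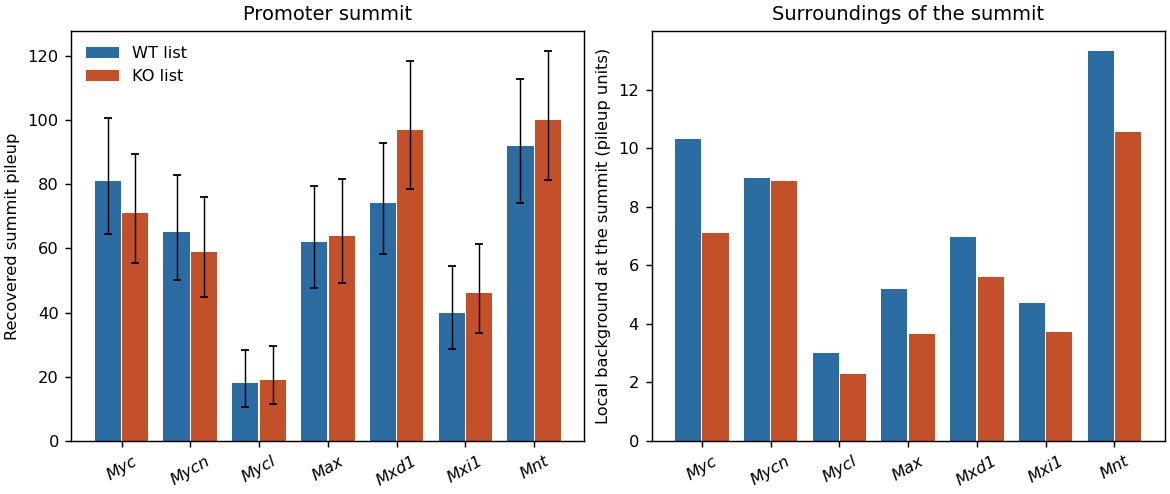
Left, recovered summit pileup at the strongest region within 1000 bp of an annotated start of each gene, as bars for the WT and KO list with exact 95% Poisson intervals (counting error only). Right, the local background at the same summits. The WT and KO intervals overlap at all 7 genes, the pileup spans 18 (Mycl, WT) to 100 (Mnt, KO), and the local background is lower in KO at each gene.

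Taking the gene starts together, 9 regions lay within 1000 bp of a start of a member and 8 of them were in both lists, close to the 83.9% of all 16443 promoter regions. A further 8.33% of all promoter regions had a WT peak alone and 7.81% a KO peak alone. Their summed pileup was 461 in WT and 493 in KO, for a relative ratio of 0.02 (−0.17 to 0.20), and none was past 1.5-fold, against 3.95% of all promoter regions past it higher and 7.95% lower. The local background was lower in KO at all 8. Across the whole family, 31 of 40 regions were in both lists (77.5%, 62.5 to 87.7%), 3 with a WT peak alone and 6 with a KO peak alone. Over all regions of the genome these shares were 64.8%, 18.1% and 17.2%. Of the 31 with a ratio, 16 were above 0 and 15 below. The median was 0.04, the range −0.94 to 1.02, and the ratio of the sums 0.07 (−0.05 to 0.19). Past 1.5-fold were 3 higher (9.68%) and 2 lower (6.45%), near the genome-wide shares of 7.64% and 7.91%. In the 17 that lay away from any start the counts were 2 and 2. The plot of relative ratios by gene gives every region with its interval.

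**Figure D4:**
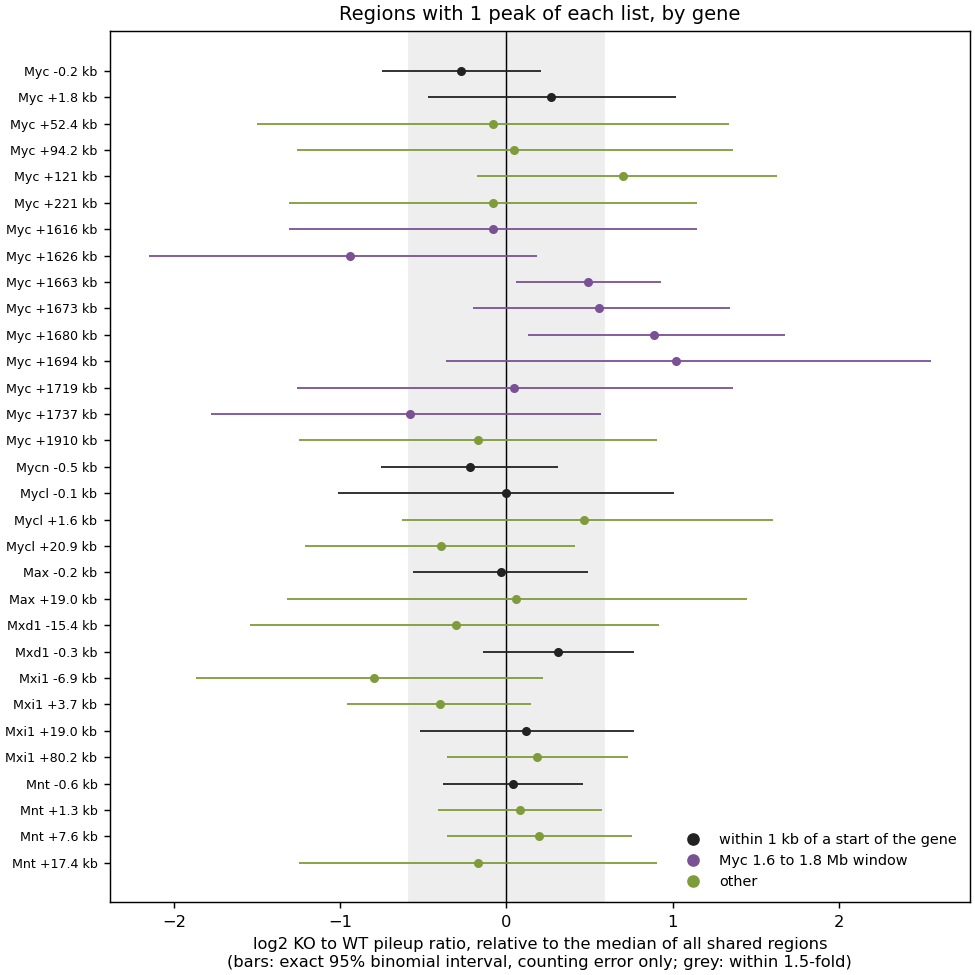
Relative log2 ratio of KO to WT pileup (x axis) for the 31 family regions with 1 peak of each list, ordered by gene and distance from its start, with exact 95% binomial intervals that cover counting error only. The grey band holds values within 1.5-fold of the median of all shared regions. The intervals of +1663 and +1680 kb lie above 0, and all others span it.

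Genes that work with the family were read at their promoters, where the median relative ratio over all promoter regions was −0.06. The family's own 7 promoters had a median of 0.00. Of 6 further genes of the network (Mxd3, Mxd4, Mga, Mlx, Mlxip and Mlxipl), 5 had a peak in both lists, with a median of −0.26 and none past 1.5-fold. Mlx, which encodes the Max-like partner of the Mondo proteins, had a peak in the WT list alone, with a pileup of 10. All 18 Myc target genes had a promoter peak in both lists, with a median of −0.03. The share over all promoter regions was 83.9%, but each gene is read here at its strongest promoter region, so the shares are not matched. Past 1.5-fold were 1 higher and 1 lower of 18, against 3.95% and 7.95% of all promoter regions. Among them Ddx21, encoding an RNA helicase of ribosome synthesis, was past 1.5-fold higher, with 25 in WT and 40 in KO and a relative ratio of 0.60 (−0.16 to 1.38). Cdk4, encoding a kinase of the G1 phase, was past it lower, with 65 in WT and 44 in KO and a relative ratio of −0.64 (−1.23 to −0.07). All 11 genes of Myc turnover and of its cofactors, such as Fbxw7, Huwe1 and Trrap, had a peak in both lists, with a median of −0.30 and none past 1.5-fold.

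Factors known to bind blood enhancers had promoter peaks in both lists at 10 of 11 genes, and Fli1 had no peak within 1000 bp of a start. The share over all promoter regions was 83.9%, not matched since each gene is read at its strongest promoter region. Runx1, encoding a core-binding factor of definitive blood formation, had 41 in WT and 28 in KO, for a relative ratio of −0.63 (−1.38 to 0.10). Of the 9 genes with a ratio it was the only 1 past 1.5-fold. Over all promoter regions, 3.95% were past it higher and 7.95% lower. Of 14 stem cell markers, 11 had a promoter peak, while Ly6a, Slamf1 and Procr had none. Ctnnal1 had 37 in WT and 71 in KO and Fgd5 10 and 16, both past 1.5-fold higher, and Hoxa9 had a WT peak alone. Promoter peaks were found for 2 of 6 B cell markers, 2 of 7 T and NK cell markers, 2 of 6 erythroid markers, 3 of 5 markers of stroma and endothelium, and 3 of 8 markers of granulocytes and monocytes. The last 3, S100a8, S100a9 and Ltf, were in the WT list alone, with low pileups of 11, 10 and 9. Of all promoter regions, 8.33% had a WT peak alone. The defining genes Mpo, Elane and Csf1r had no promoter peak in either list. The part of other cells in the Myc values was not tested.

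**Figure D5:**
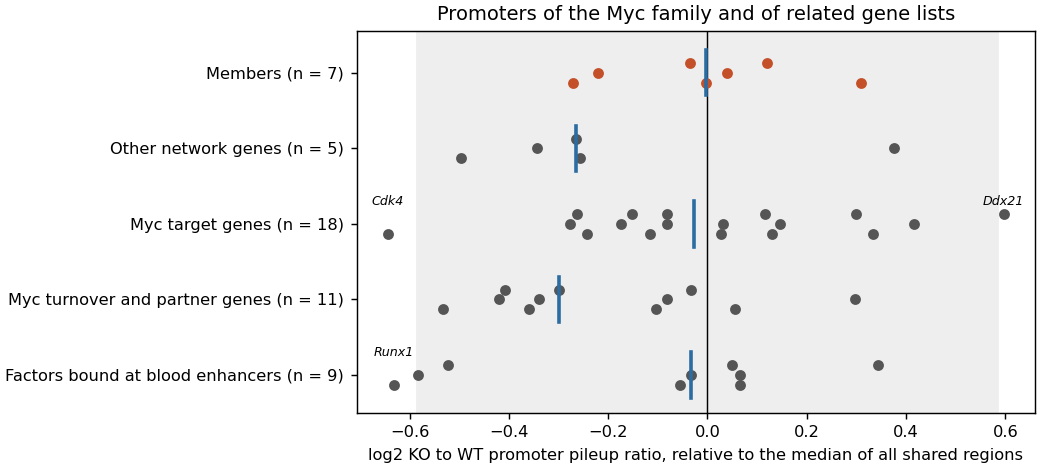
Relative log2 ratio of KO to WT promoter pileup (x axis) for each gene with 1 peak of each list at its strongest promoter region, by gene list, with n the number of such genes. Vertical bars are list medians, the grey band holds values within 1.5-fold, and genes past it are named. The 7 family members all lie within the band, with Ddx21, Cdk4 and Runx1 outside it.

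The letters of 10 motifs were counted in the 200 bp around each summit, on both strands. They were the E-box CACGTG bound by Myc and Max, GATA as AGATAA or TGATAA, ETS as CCGGAAGT, PU.1 as GAGGAAGT, RUNX as TGTGGTT, CEBP as TTGCNNAA, AP-1 as TGANTCA, MEIS as TGACAG, STAT as TTCCNGGAA and TAL as CAGCTG. Matches of different motifs may overlap. In the 9 cluster windows the MEIS letters were found in 4, against 15.5% of all windows away from starts. The AP-1 and TAL letters were found in 2 each, against 10.4% and 14.8%, and the GATA, PU.1 and CEBP letters in 1 each, against 19.3%, 8.64% and 9.47%. No cluster window held the E-box, ETS, RUNX or STAT letters. The median GC content of the cluster windows was 48%, and that of all windows away from starts 49%.

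Over all 40 family windows, 6 of the 10 motifs were more frequent than over all regions. The E-box was in 3 windows (7.5% against 4.84%), 1 in an intron of Max and 2 at Mycl. GATA letters were rarer in the family, with 7.5% against 14.6%, and MEIS and TAL letters were each in 22.5% against 13.9%. In the RefSeq promoter table for mouse, which gives the bases around each start, the promoters of Max and Mnt held CACGTG and those of Mycn, Mycl, Mxd1 and Mxi1 did not. The Myc promoter was not analysed here for these letters in that table. The letters were in 7.20% of the 32619 promoters of that table. These are letter matches and say nothing on binding.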

How the data were processed

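ATAC-seq of HSCs from WT and KO mice was represented by 1 deposited peak list for each genotype, named by the labels of both of its replicates. Per the labels and the study's methods, the authors used Trim Galore for trimming, Bowtie2 for alignment to mm10, Picard to discard duplicates and MACS2, without a fragment model, for peak calling. Versions are not given in the sources used here, nor is it stated whether replicates were pooled. Each deposited list gives the authors' fold enrichment of the summit over local background (a ratio), the −log10 p and −log10 q of the caller, and a display score, which was not used. Read totals are unknown, so depth is seen only in the pileups.

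Pileup and local background were solved from fold enrichment and −log10 p under the caller's Poisson model. Pileups were whole numbers within 0.001 for 99.99% of peaks in each list. Overlapping peaks of both lists, by at least 1 bp, were merged into regions on 19 autosomes and chromosome X. Gene starts came from GENCODE M21, and 0 regions lay beyond a chromosome end. With 1 list a genotype, a call is a fold of 1.5 against the genome-wide median, and intervals cover counting error only. The steps were tested on simulated data. The ratio calls were tested there only with changes larger than those seen here, in stronger regions than most of the family. Named regions were every region of the members and, of the gene lists, those past 1.5-fold or in 1 list alone. Members, gene lists and motifs were chosen with earlier results of these data known. Alternatives varied the threshold, overlap, merging, windows, centring and measure. Python 3.11.15, numpy 2.4.6, pandas 2.3.3, scipy 1.17.1 and samtools 1.23.1 were used.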

Additional observations from a re-analysis of the deposited data

How the results depend on the processing

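With 1 list a genotype, no value here has a replicate check, and low pileups limit most single regions. With peaks of −log10 q of at least 10 only, 24 family regions were left, of which 0 were past 1.5-fold lower, the share of cluster regions in both lists was 50% (3 of 6) and their median relative ratio 0.58. With summits within 100 bp counted as shared, 55% of family regions were in both lists. With the authors' fold enrichments in place of pileups, 1 family region was past 1.5-fold higher, 24 of 31 regions kept the sign of their relative ratio, and 0 regions higher and 2 lower (+1626 kb at Myc and −6.94 kb at Mxi1) were past 1.5-fold in both measures. The summed ratio of the cluster, added after the data were seen, was 0.30 (0.03 to 0.58) relative to regions away from starts and 0.26 (−0.10 to 0.62) without its strongest region. The causes of these shifts were not tested. The other alternatives were a −log10 q of at least 5, wider or narrower windows, and peaks merged over 500 bp. Raw pileups, centring on regions of like pileup, and motif windows of 100 or 400 bp were also used. Each result computed under any of these stayed within 1.5 times its count or within its error. Not every result was computed under each. With a −log10 q of at least 5, merging or narrower gene windows, no ratio or 1.5-fold count was computed. No paired analysis was possible because the labels give both replicates of a genotype the same list, and no replicate could be left out.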
